A study of Mus musculus with 12 samples.

Results

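The 10 genes described here encode 6 matrix metalloproteinases (Mmp8, Mmp9, Mmp12, Mmp13, Mmp14 and Mmp19), the metalloproteinase inhibitors Timp1 and Timp2, and the membrane-anchored sheddases Adam8 and Adam17. They were taken by gene symbol from the deposited table, in which all 10 were present among 12850 listed genes. RNA-seq was performed on thioglycollate-elicited peritoneal exudate cells (PECs) of C57BL/6 mice. WT PECs were compared with PECs of homozygous Zc3h12a S513A/S513A knock-in mice (S513A), whose Regnase-1, an RNase that degrades inflammatory mRNAs, carries alanine in place of a serine that is phosphorylated after LPS stimulation. Cultured cells of each genotype received no LPS (0 hr) or LPS at 100 ng/ml for 4 or 8 hr, with 2 libraries in each of the 6 groups and 12 libraries in all. The knock-in is a germline change present in every cell type of the exudate, and as a point substitution it cannot be checked from counts per gene. The ages of the mice and whether the 2 libraries of a group came from different mice are not given in the sources used here, so p values measure only the spread between these libraries, which may be technical.

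Matrix metalloproteinases are zinc-dependent endopeptidases that are made as inactive precursors and cleave collagens, elastin and many secreted proteins. TIMPs bind their active sites and block them, and thus the balance of enzyme and inhibitor sets how much matrix is broken down around a cell. ADAM17 and ADAM8 sit in the plasma membrane and cut the ectodomains of other membrane proteins, and ADAM17 is best known as the enzyme that releases TNF. In macrophages these genes serve migration through tissue, tissue repair and the shedding of cytokines and receptors.

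Libraries held 9525979 to 12439960 reads on listed genes. The member with the fewest reads was Timp1, with 52 to 287 reads per library, and that with the most was Mmp12, with 62524 to 130246. The 9 macrophage markers were all listed, with a summed level of 16813 to 27953 CPM per library. Of 12 neutrophil markers only Camp, Csf3r and S100a8 were listed, summing to 103 to 122 CPM at 0 hr, 139 to 183 at 4 hr and 162 to 215 at 8 hr. Mesothelial and fibroblast markers summed to 42.7 to 84.2 CPM in WT libraries and to 49.99, 61.17 and 59.64 CPM in the S513A libraries numbered 1 at 0, 4 and 8 hr, but to 22.02, 21.55 and 22.03 CPM in those numbered 2. Col1a1, Col1a2, Col3a1 and Pdgfra were lower in those numbered 2 at each time. Dcn of the same list was higher there (1.65 against 1.42, 2.79 against 2.53 and 2.97 against 2.56 log2 CPM). In a bulk sample fewer cells of a type and less RNA per cell cannot be told apart.

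Mmp13, Mmp12 and Mmp8 lie in the matrix metalloproteinase cluster of chromosome 9 (GRCm38, the same sequence as mm10). Mmp13 and Mmp12 are next to each other, and Mmp1b, Mmp3 and Mmp10 lie between Mmp12 and Mmp8. Mmp13 lies at chr9:7272514-7283331, Mmp12 at chr9:7344381-7369499 and Mmp8 at chr9:7558456-7568485, all on the plus strand. Mmp3 and Mmp27 of the same cluster were also listed, and its other protein-coding genes Mmp1b, Mmp7, Mmp10 and Mmp20 were not. The remaining members are scattered: Mmp9 at chr2:164940780-164955850, Mmp14 at chr14:54431612-54445364, Mmp19 at chr10:128790910-128800824, Timp1 at chrX:20870166-20874735, Timp2 at chr11:118301069-118355740, Adam8 at chr7:139978932-139992562 and Adam17 at chr12:21323509-21373632.

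Upstream sequence from RefSeq (GRCm38.p6) was found for 8 of the 10 members, not for Mmp9 and Mmp19. The 250 bases before the start are printed below 5′ to 3′ on the strand of the gene for Mmp13, Mmp14, Timp1 and Adam17, which all rose with LPS, and for the second of 2 annotated starts of Mmp12, the neighbour of Mmp13 with the highest level of all members. Capitals mark matches on either strand to an AP-1 element, spelled TGANTCA. They also mark TATA boxes, for which the letters TATAAA were searched. GC boxes, spelled GGGCGG, are marked as well, and no marked motif overlaps one of another kind. The windows are Mmp13 at chr9:7272264-7272513, Mmp12 at chr9:7347124-7347373, Mmp14 at chr14:54431348-54431597, Timp1 at chrX:20869916-20870165 (all plus strand) and Adam17 at chr12:21373633-21373882 (minus strand).
Mmp13: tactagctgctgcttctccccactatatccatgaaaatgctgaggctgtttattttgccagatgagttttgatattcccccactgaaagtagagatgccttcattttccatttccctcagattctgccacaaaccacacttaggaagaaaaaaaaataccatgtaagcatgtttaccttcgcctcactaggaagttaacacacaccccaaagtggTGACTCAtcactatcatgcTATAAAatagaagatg
Mmp12: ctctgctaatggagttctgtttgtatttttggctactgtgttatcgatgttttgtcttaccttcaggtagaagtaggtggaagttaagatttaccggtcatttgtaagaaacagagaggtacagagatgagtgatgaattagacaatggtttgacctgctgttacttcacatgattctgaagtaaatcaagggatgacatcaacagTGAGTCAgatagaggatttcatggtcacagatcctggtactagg
Mmp14: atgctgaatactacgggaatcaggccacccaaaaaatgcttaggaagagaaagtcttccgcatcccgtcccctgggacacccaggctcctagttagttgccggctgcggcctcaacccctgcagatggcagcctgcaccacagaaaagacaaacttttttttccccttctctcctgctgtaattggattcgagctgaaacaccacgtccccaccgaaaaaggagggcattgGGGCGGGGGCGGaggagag
Timp1: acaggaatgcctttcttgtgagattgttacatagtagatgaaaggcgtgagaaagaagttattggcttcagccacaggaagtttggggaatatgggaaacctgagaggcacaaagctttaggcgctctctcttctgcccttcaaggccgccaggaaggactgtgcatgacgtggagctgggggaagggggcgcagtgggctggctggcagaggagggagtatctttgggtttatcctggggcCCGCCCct
Adam17: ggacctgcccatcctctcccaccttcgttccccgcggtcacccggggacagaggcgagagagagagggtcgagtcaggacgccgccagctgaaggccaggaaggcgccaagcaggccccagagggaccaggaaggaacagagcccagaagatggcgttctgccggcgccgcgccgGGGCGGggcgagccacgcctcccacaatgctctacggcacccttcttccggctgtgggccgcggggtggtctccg
Mmp13 held TGACTCA at -35 to -29 and TATAAA at -16 to -11 from its annotated start. The second Mmp12 start held TGAGTCA at -44 to -38 and no TATAAA. The first Mmp12 start, not printed, held neither motif. No other member with a sequence held either motif in its window. Over all 32851 promoters of this length, 6.75% held the AP-1 letters, 12.4% the TATA letters and 32.7% the GC box. GC boxes were found in the windows of Mmp14, Timp1, Timp2, Adam8 and Adam17. The Adam17 window was 70.4% G+C with 23 CpG and the Mmp13 window 40.4% with 1 CpG, against medians of 52.4% and 6 CpG over all promoters. These matches describe letters in the reference and not sites in use.

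To compare one gene with another, levels were expressed as CPM per kb of exon. Mmp12, macrophage elastase, was by far the most abundant member, with a mean of 1334 CPM per kb at 0 hr, 1212 at 4 hr and 925 at 8 hr over 4 libraries each. It ranked 20th of the 12510 genes with a length at 0 hr, 30th at 4 hr and 37th at 8 hr, and took 0.964 to 1.13% of the reads on listed genes at 0 hr. Mmp8, the neutrophil-type collagenase, was at 280, 207 and 163 CPM per kb, by this length second at 0 and 4 hr and below Mmp14 at 8 hr.

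At 0 hr the order continued with Timp2 (140 CPM per kb), Adam8 (87.0), Adam17 (45.1), Mmp19 (43.0), Mmp14 (42.7), Mmp9 (13.4), Mmp13 (10.2) and Timp1 (5.09). Libraries of Adam17 and Mmp19, of Mmp19 and Mmp14, and of Mmp9 and Mmp13 overlapped at that time. Such overlap does not compare 2 genes within a library. Within every library at 0 hr Mmp9 lay above Mmp13 (14.6 against 8.85 and 10.8 against 9.23 in WT, 14.4 against 11.8 and 13.9 against 10.8 in S513A). For the other pairs the order differed between libraries. At 4 hr the order below Mmp12 and Mmp8 was Mmp14 (156 CPM per kb), Adam17 (79.2), Timp2 (75.7), Mmp13 (59.3), Mmp9 (48.7), Adam8 (30.4), Timp1 (27.9) and Mmp19 (16.5). The pairs Mmp8 and Mmp14, Adam17 and Timp2, Mmp13 and Mmp9, and Adam8 and Timp1 overlapped. At 8 hr Mmp14 (178) stood beside Mmp8 with overlapping libraries, followed by Mmp9 (93.8), Adam17 (88.8), Timp2 (48.4), Mmp13 (41.7), Adam8 (31.1), Timp1 (15.9) and Mmp19 (10.3). Of these last 7 members, the neighbouring pairs that overlapped were Mmp9 and Adam17, Timp2 and Mmp13, Mmp13 and Adam8, and Timp1 and Mmp19. The order depended on the length used. With the longest transcript as length, Mmp14 lay above Mmp8 at 4 hr (288 against 207 CPM per kb) and at 8 hr (327 against 163). By that length Mmp14 (78.6) exceeded Adam17 (72.3) and Mmp19 (44.6) at 0 hr, and Adam17 (142) exceeded Mmp9 (104.5) at 8 hr.

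**Figure D1:**
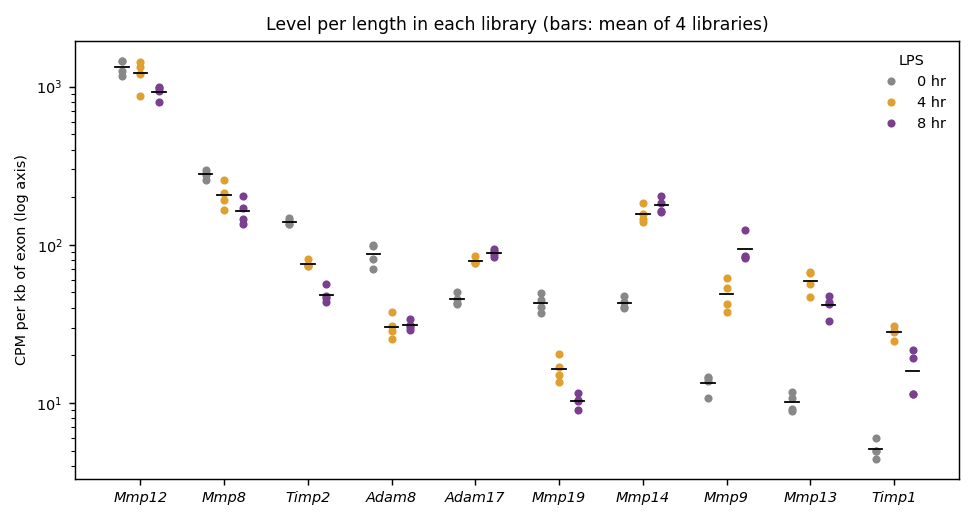
Level of each member in CPM per kb of exon (log axis) in every library at 0, 4 and 8 hr of LPS, 4 libraries a time, both genotypes together; black bars are means. Mmp12 lies highest at every time (means 1334, 1212 and 925), and Mmp14, Mmp9, Mmp13 and Timp1 start low and lie higher at 4 and 8 hr.

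The make-up of the summed Mmp level differed between the times. The 6 Mmp genes together summed to 1723 ± 147 CPM per kb at 0 hr, 1700 ± 256 at 4 hr and 1411 ± 73.2 at 8 hr (mean ± SD, n = 4). Mmp12 made up 77.3% ± 1.99 of that sum at 0 hr, 70.8% ± 4.46 at 4 hr and 65.4% ± 3.20 at 8 hr. Mmp14 went from 2.49% ± 0.289 to 9.52% ± 2.88 and 12.7% ± 2.12 of it, and Mmp9 from 0.776% ± 0.0721 to 3.00% ± 1.19 and 6.71% ± 1.85. For the inhibitors, Timp2 exceeded Timp1 27.9 ± 3.50 times at 0 hr, 2.74 ± 0.421 times at 4 hr and 3.23 ± 0.794 times at 8 hr. The lowest of these ratios at 0 hr (22.7) lay above the highest at 4 hr (3.35) and at 8 hr (4.03).

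To find which members responded to LPS, each time was compared with 0 hr over both genotypes, using limma with Benjamini-Hochberg adjustment over 11885 genes and an adjusted p of 0.05 as the threshold. All 10 members passed the filter on low values. At 4 hr, 5 members rose (Mmp13, Timp1, Mmp14, Mmp9 and Adam17) and 4 fell (Adam8, Mmp19, Timp2 and Mmp8), where 29.1% of all genes tested rose and 26.7% fell. At 8 hr the same 5 had risen and the 4 had fallen together with Mmp12, while 24.5% and 21.6% of all genes did so. The members' median log2 fold change was 0.33 at 4 hr and 0.23 at 8 hr, beside 0.02 and -0.0007 over all genes. The comparisons at 4 and 8 hr share the libraries at 0 hr.

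**Figure D2:**
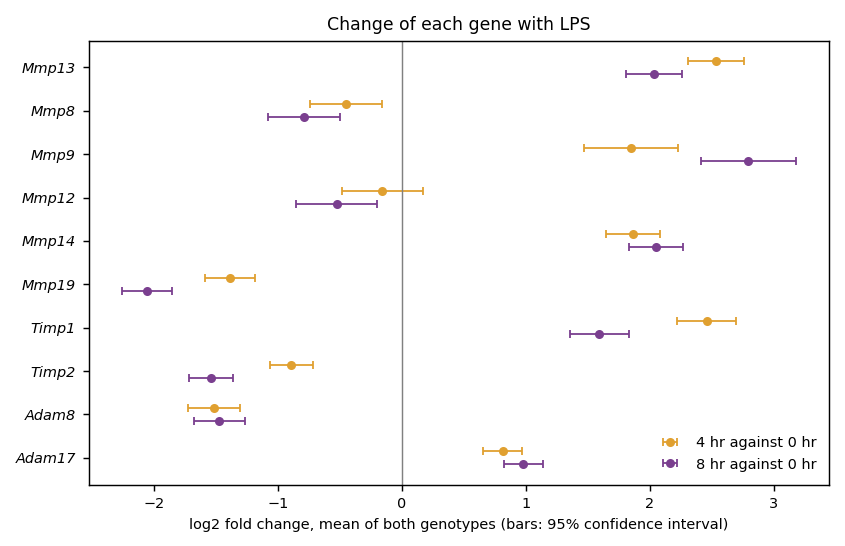
Log2 fold change of each member at 4 hr and at 8 hr against 0 hr, mean of both genotypes (4 libraries against 4), with 95% confidence intervals from limma. Mmp13, Mmp9, Mmp14, Timp1 and Adam17 lie right of 0 at both times and Mmp8, Mmp19, Timp2 and Adam8 left of it, and the interval of Mmp12 crosses 0 at 4 hr.

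Among the collagenases, Mmp13, which cleaves fibrillar collagens, had the largest rise of all members at 4 hr. In WT its level was 4.56 and 4.62 log2 CPM at 0 hr, 7.24 and 6.96 at 4 hr, then 6.47 and 6.86 at 8 hr. In S513A it was 4.98 and 4.85, then 7.49 and 7.47, then 6.82 and 6.99. All libraries at 4 and 8 hr lay above all at 0 hr. Its log2 fold change was 2.54 (SE 0.10, adjusted p = 6.37e-09, limma) at 4 hr and 2.03 (SE 0.10, adjusted p = 4.99e-08) at 8 hr, which is 5.81-fold and 4.09-fold. From 4 to 8 hr it fell by 0.50 on the log2 scale (adjusted p = 0.00467, limma), although the libraries of the 2 times overlapped.

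Mmp8, which is also stored in neutrophil granules, moved the other way. Its WT libraries held 9.50 and 9.29 log2 CPM at 0 hr, 9.29 and 8.64 at 4 hr, then 8.94 and 8.69 at 8 hr. Its S513A libraries held 9.39 and 9.44, then 8.87 and 9.01, then 8.36 and 8.46. The highest library at 4 hr was just below the lowest at 0 hr, and at 8 hr all were clearly lower. The log2 fold change was -0.45 (SE 0.13, adjusted p = 0.0125, limma) at 4 hr and -0.79 (SE 0.13, adjusted p = 0.000524) at 8 hr. The call at 4 hr was lost without the WT library numbered 1 at 0 hr (adjusted p = 0.0515, limma) and without the 3 S513A libraries numbered 2 (adjusted p = 0.0662). The change at 4 hr was -0.29 without the WT library numbered 2 at 4 hr and -0.84 under quantile normalization. The summed neutrophil markers given above were higher at 4 and 8 hr than at 0 hr, and their part in the levels of Mmp8 and Mmp9 was not tested.

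Mmp9, gelatinase B, which degrades denatured collagen and basement membrane, was the member that kept rising. Its WT levels were 5.69 and 5.25 log2 CPM at 0 hr, 7.22 and 7.78 at 4 hr, then 8.23 and 8.19 at 8 hr. Its S513A levels were 5.67 and 5.62, then 7.56 and 7.06, then 8.78 and 8.20. No library of one time overlapped those of another. It rose by 1.85 on the log2 scale (SE 0.17, adjusted p = 5.09e-06, limma) at 4 hr and by 2.80 (SE 0.17, adjusted p = 2.41e-07) at 8 hr, or 3.60-fold and 6.95-fold. Between 4 and 8 hr it rose by 0.95 (SE 0.17, adjusted p = 0.00257, limma), and it was the only member called higher in that comparison, where 12.8% of all genes tested were.

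For Mmp12, the WT libraries held 13.15 and 13.05 log2 CPM at 0 hr, 13.24 and 12.62 at 4 hr, then 12.79 and 12.81 at 8 hr. In S513A the values were 13.35 and 13.37, then 13.09 and 13.34, then 12.49 and 12.72. Libraries at 4 hr overlapped those at 0 hr, and those at 8 hr lay below them. The log2 fold change was -0.16 (95% confidence interval -0.48 to 0.17, adjusted p = 0.393, limma) at 4 hr and -0.53 (-0.85 to -0.20, adjusted p = 0.0128) at 8 hr. The call at 8 hr was lost under quantile normalization, where the change was -0.10 (adjusted p = 0.522, limma), and without the 3 S513A libraries numbered 2 (adjusted p = 0.0509). Quantile normalization sets each value by its rank within the library. A gene as high as Mmp12 can then move only in steps between the top ranks, so that alternative cannot gauge the size of its change. Mmp12 shares 157 bases of exon with Mmp1b on the opposite strand. The reads were mapped as unstranded, and the strand setting of the counting is not given in the sources used here.

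Mmp14, a membrane-anchored enzyme that cleaves collagen at the cell surface and activates the Mmp2 precursor, rose early and stayed high. In WT it was at 8.14 and 7.91 log2 CPM at 0 hr, 9.76 and 10.09 at 4 hr, then 9.93 and 9.90 at 8 hr. In S513A it was at 7.89 and 8.02, then 9.86 and 9.70, then 10.24 and 10.09. Stimulated and unstimulated libraries did not overlap, and those at 4 and 8 hr did. The log2 fold change was 1.87 (SE 0.10, adjusted p = 5.28e-08, limma) at 4 hr and 2.05 (SE 0.10, adjusted p = 3.47e-08) at 8 hr, and 8 hr against 4 hr differed by 0.19 (95% confidence interval -0.03 to 0.40, adjusted p = 0.201). Mmp2, a gelatinase for which Mmp14 is an activator, went from 29 to 53 reads per library at 0 hr to 98 to 126 at 4 hr, with a log2 fold change of 1.74 (SE 0.14, adjusted p = 1.27e-06, limma).

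Mmp19, a secreted enzyme that cleaves basement membrane proteins, fell most of all members at 8 hr. WT libraries held 7.46 and 7.31 log2 CPM at 0 hr, 6.18 and 5.90 at 4 hr, then 5.35 and 5.22 at 8 hr. S513A libraries held 7.15 and 7.04, then 5.73 and 5.59, then 4.99 and 5.18. The 3 times formed separate steps with no overlap. The log2 fold change was -1.39 (SE 0.09, adjusted p = 2.99e-07, limma) at 4 hr and -2.05 (SE 0.09, adjusted p = 1.89e-08) at 8 hr, a 4.15-fold lower level, and from 4 to 8 hr it fell by a further 0.67 (adjusted p = 0.000459, limma). Mmp19 shares 789 bases of exon with Tmem198b on the opposite strand, which held 41 to 115 reads per library against 334 to 2521 for Mmp19.

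**Figure D3:**
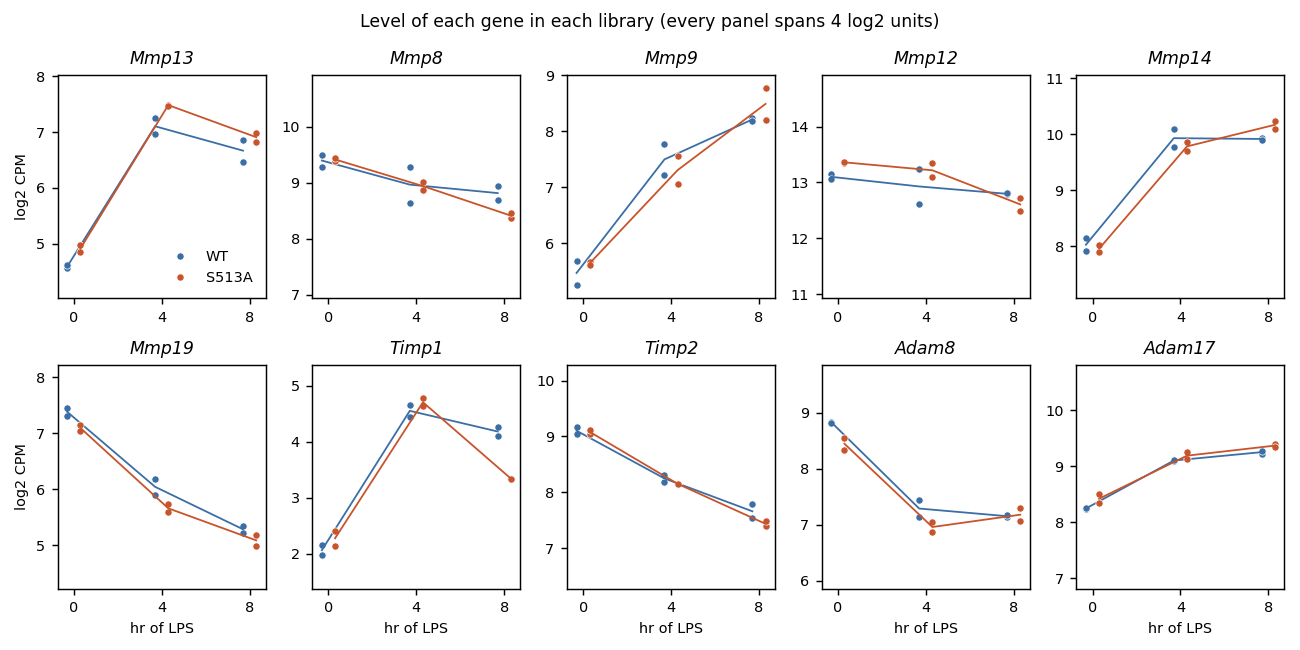
Log2 CPM of each member in each of the 12 libraries (points) against hours of LPS, WT blue and S513A orange, with lines through group means; every panel spans 4 log2 units. Mmp9 climbs from 0 to 8 hr, Mmp13 and Timp1 are highest at 4 hr, Mmp19 and Timp2 step down, and the 2 genotypes run close together except for Timp1 at 8 hr.

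The inhibitors moved in opposite directions. Timp1, an inducible inhibitor that also binds proMMP-9, stood at 1.98 and 2.15 log2 CPM in WT at 0 hr, 4.66 and 4.44 at 4 hr, then 4.10 and 4.26 at 8 hr. In S513A it was at 2.41 and 2.14, then 4.64 and 4.77, then 3.34 and 3.34. All stimulated libraries lay above the unstimulated ones, and all at 8 hr below all at 4 hr. It rose by 2.46 on the log2 scale (SE 0.11, adjusted p = 1.14e-08, limma), or 5.50-fold, at 4 hr and was still 1.59 higher (SE 0.11, adjusted p = 4.75e-07) at 8 hr. From 4 to 8 hr it fell by 0.87 (SE 0.11, adjusted p = 0.000254, limma). Within WT that change was -0.37 (adjusted p = 0.134, limma, not called) and within S513A -1.36 (adjusted p = 0.00042), and the difference between these changes was not tested.

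Timp2, which is made constitutively by many cells and takes part in the activation of proMMP-2 by MMP14, was lower at each time than at the one before. WT levels were 9.04 and 9.17 log2 CPM at 0 hr, 8.18 and 8.32 at 4 hr, then 7.54 and 7.79 at 8 hr. S513A levels were 9.05 and 9.12, then 8.15 and 8.16, then 7.40 and 7.48. The times did not overlap. The log2 fold change was -0.89 (SE 0.08, adjusted p = 3.64e-06, limma) at 4 hr and -1.54 (SE 0.08, adjusted p = 6.21e-08) at 8 hr, and -0.65 (SE 0.08, adjusted p = 0.000237) between them.

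The sheddases also diverged. Adam8, carried by myeloid cells, was at 8.85 and 8.83 log2 CPM in WT at 0 hr, 7.14 and 7.44 at 4 hr, then 7.13 and 7.18 at 8 hr. In S513A its values were 8.55 and 8.35, then 7.04 and 6.88, then 7.30 and 7.07. Every stimulated library was below every unstimulated one, while 4 and 8 hr overlapped. It fell by 1.52 on the log2 scale (SE 0.09, adjusted p = 1.86e-07, limma) at 4 hr and by 1.47 (SE 0.09, adjusted p = 2.96e-07) at 8 hr.

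Adam17, the TNF-converting enzyme, had the smallest rise of the 5 and the smallest standard error of all members. WT held 8.24 and 8.25 log2 CPM at 0 hr, 9.10 and 9.10 at 4 hr, then 9.22 and 9.28 at 8 hr. S513A held 8.34 and 8.49, then 9.25 and 9.13, then 9.39 and 9.35. Stimulated libraries lay above unstimulated ones without overlap. Its log2 fold change was 0.81 (SE 0.07, adjusted p = 2.96e-06, limma) at 4 hr and 0.98 (SE 0.07, adjusted p = 8.53e-07) at 8 hr, or 1.76-fold and 1.97-fold. Under quantile normalization the rise at 4 hr was 0.40 (adjusted p = 0.0017, limma). Adam17 shares 311 bases of exon with Iah1 on the opposite strand, which held 512 to 998 reads per library against 3698 to 7787 for Adam17.

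Between 4 and 8 hr, 1 member rose and 4 fell (Mmp13, Mmp19, Timp1 and Timp2), where 12.8% of all genes tested fell. Mmp8 (-0.34), Mmp12 (-0.37), Mmp14 (0.19), Adam8 (0.04) and Adam17 (0.17) did not pass the threshold. Without the WT library numbered 2 at 4 hr, Mmp8 (-0.50, adjusted p = 0.00326, limma), Mmp12 (-0.53, adjusted p = 0.0113) and Mmp14 (0.27, adjusted p = 0.0491) did. Within WT, 5 members rose and 3 fell at 4 hr (22.6% and 18.7% of all genes) and 5 rose and 4 fell at 8 hr (19.4% and 14.9%). Within S513A, 5 rose and 3 fell at 4 hr (23.1% and 20.2%) and 5 rose and 5 fell at 8 hr (20.9% and 19%). The fall of Mmp8 at 8 hr within WT was lost under 8 of 23 alternatives (adjusted p up to 0.211, limma), among them leaving out any 1 library of WT at 0 or 8 hr or of S513A at 0 hr. That of Mmp12 at 8 hr within S513A was lost under 5 of 23 (adjusted p up to 0.652, limma), namely quantile normalization and leaving out either S513A library at 0 hr, the one numbered 1 at 8 hr or the 3 numbered 2. Mmp8 at 4 hr within S513A was not called (-0.48, adjusted p = 0.0601, limma) but passed under 5 of 23, among them leaving out either WT library at 4 hr. Mmp8 at 4 hr within WT was not called either (-0.43, adjusted p = 0.0877, limma) and passed under quantile normalization and without the WT library numbered 1 at 4 hr (adjusted p = 0.00223). From 4 to 8 hr, 0 members rose and 2 fell within WT (6.73% and 7.49% of all genes), with 5 members at an unadjusted p under 0.05 in limma, and 1 rose and 4 fell within S513A (9.31% and 8.99%).

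To learn whether the S513A change of Regnase-1 altered these genes, the genotypes were compared at each time. None of the 10 members passed the threshold in limma at 0, 4 or 8 hr, where 0.0337%, 0.0168% and 0.0337% of all genes did. At an unadjusted p under 0.05 the counts were 3 of 10 members at 0 hr, 3 at 4 hr and 1 at 8 hr, beside 949, 833 and 1487 of the 11885 genes. Averaged over the 3 time points, 0 members passed, against 0.0673% of all genes called, and 3 members were at an unadjusted p under 0.05, beside 798 of the 11885 genes. That average treats the 6 libraries of a genotype as independent, and whether libraries of one number share cells is not given. With 2 libraries a group the 95% intervals were wide, with full widths of 0.44 to 1.08 log2 units across members. They are not adjusted for the number of genes, so an interval could exclude 0 without a call, as for Timp1 at 8 hr. The absence of calls therefore does not show that the genotypes are equal.

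The largest difference was that of Timp1 at 8 hr. Both S513A libraries stood at 3.34 log2 CPM, below the WT libraries at 4.10 and 4.26. The log2 fold change was -0.84 (95% confidence interval -1.18 to -0.51), with an adjusted p of 0.395 in limma, so it did not pass the threshold over all genes. At 8 hr 53.6% of all genes had non-overlapping libraries between genotypes. At 0 hr the Timp1 difference was 0.21 (-0.12 to 0.55) and at 4 hr it was 0.15 (-0.18 to 0.49). The rise from 0 to 8 hr was 2.12 (SE 0.15) in WT and 1.07 (SE 0.15) in S513A. Their difference, the genotype by LPS interaction, was -1.05 (SE 0.21, adjusted p = 0.193, limma), and 0 of 11885 genes were called in that contrast, with 2405 at an unadjusted p under 0.05. Without the S513A library numbered 2 at 8 hr it was -1.05 (adjusted p = 0.0428, limma), and 651 genes were then called. Over 8 hr libraries, the summed macrophage markers were 23795 and 24844 CPM in WT and 16813 and 22493 CPM in S513A. That sum mostly follows Lyz2, the highest of the markers (13.94 and 14.03 log2 CPM in WT, 13.14 and 13.86 in S513A). Adgre1 and Cd14 were also lower in S513A at 8 hr. Mertk was higher there (6.55 and 6.54 against 6.32 and 6.12 in WT), and the other markers overlapped. The part of these markers in the Timp1 difference was not tested. The interaction at 4 hr called 0 members and 0 genes in limma, with 0 members and 144 genes at an unadjusted p under 0.05.

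Averaged over the 3 time points, the largest differences between genotypes were those of Mmp13, Mmp19 and Adam8, and none passed the threshold. Mmp13 was 0.31 (SE 0.08, adjusted p = 0.418, limma) higher in S513A, while Mmp19 was -0.29 (SE 0.07, adjusted p = 0.404) and Adam8 -0.23 (SE 0.08, adjusted p = 0.589). At 0 hr the S513A libraries of Mmp19 and of Adam8 lay below the WT ones and those of Mmp12, Mmp13 and Adam17 above them. At that time 57.5% of all genes had libraries that did not overlap. At 4 hr those of Mmp19, Timp2 and Adam8 lay below and those of Mmp13 and Adam17 above (28.2% of all genes). At 8 hr those of Mmp8, Mmp12, Mmp19, Timp1 and Timp2 lay below and those of Mmp14 and Adam17 above (53.6% of all genes). Adam8 at 0 hr passed the threshold only when the 4 libraries at 0 hr were fitted alone (-0.39, adjusted p = 0.0457, limma), a fit in which 693 genes were called in place of 4. The differences for Mmp14, Timp2 and Adam17, averaged over time, were 0.01 (-0.17 to 0.19), -0.11 (-0.26 to 0.03) and 0.13 (-0.0021 to 0.25), all in limma with intervals at 95%.

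**Figure D4:**
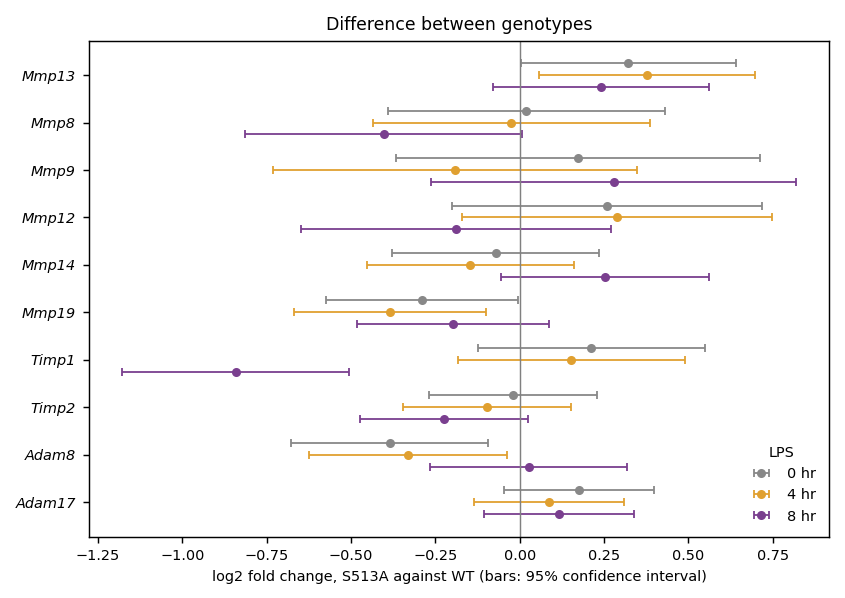
Log2 fold change of S513A against WT for each member at 0, 4 and 8 hr (2 libraries against 2), with 95% confidence intervals from limma that are not adjusted for the number of genes. Most intervals cross 0, and the point farthest from it is Timp1 at 8 hr at -0.84, whose adjusted p was 0.395.

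The remaining metalloproteinase genes were few in these cells. Of 17 other Mmp genes on the list 5 were tested. At 4 hr 2 rose and 1 fell (29.1% and 26.7% of all genes), and at 8 hr 3 rose and 1 fell (24.5% and 21.6%). Besides Mmp2, Mmp25, a membrane-type enzyme of leukocytes, rose from 3 to 5 reads per library at 0 hr to 11 to 30 at 8 hr (log2 fold change 2.34, SE 0.35). The gene that rose at 8 hr beside these was Mmp3, stromelysin-1, named after its values were seen, with 0 to 4 reads at 0 hr and 2 to 10 at 8 hr. Mmp25 and Mmp3 lay below 1 CPM in every library at 0 hr and passed the filter only through stimulated libraries. Their calls are therefore not independent of the filter. At 8 hr Mmp27 of the chromosome 9 cluster fell by 1.33 log2 units (SE 0.12, adjusted p = 7.12e-06, limma).

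Of 31 other ADAM and ADAMTS genes 13 were tested, and 1 rose and 3 fell at 4 hr, where 29.1% and 26.7% of all genes did. The gene that rose, Adamts4, an aggrecan-cleaving enzyme, had 0 or 1 read per library at 0 hr, 65 to 137 at 4 hr and 11 to 19 at 8 hr. Adamts4 passed the filter only through stimulated libraries, so its calls are not independent of the filter. Adam10, the sheddase closest to Adam17, fell by 0.44 log2 units at 4 hr (SE 0.07, adjusted p = 0.000358, limma) and by 0.30 at 8 hr (SE 0.07, adjusted p = 0.0058) while Adam17 rose. At 8 hr 2 rose and 1 fell, where 24.5% and 21.6% of all genes did, and Adamts7 was the other that rose (1.24, SE 0.35, adjusted p = 0.0131, limma).

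Genes whose products activate, carry or restrain the members were read as a further list, of which 21 of 26 were tested. At 4 hr 12 rose and 4 fell (29.1% and 26.7% of all genes), and at 8 hr 10 rose and 6 fell (24.5% and 21.6%), with median log2 fold changes of 0.57 and 0.21 beside 0.02 and -0.0007 over all genes. Rhbdf2, which encodes iRhom2, the carrier that brings ADAM17 to the cell surface in myeloid cells, rose by 1.79 (SE 0.12, adjusted p = 4.7e-07, limma) at 4 hr and 1.42 (SE 0.12, adjusted p = 4.01e-06) at 8 hr, and was named after its values were seen. Tspan14, a tetraspanin that takes ADAM10 to the surface, fell by 1.41 (SE 0.07, adjusted p = 2.83e-08, limma) at 4 hr, as did Tspan5 by 0.37 (SE 0.07, adjusted p = 0.000651). Tspan33, a tetraspanin of the same group, went from 0 to 3 reads per library at 0 hr to 13 to 27 at 4 hr, and passed the filter only through stimulated libraries. Cd9 fell by 0.50 at 8 hr (SE 0.12, adjusted p = 0.00563, limma).

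In the plasminogen system, which activates several Mmp precursors, the genes did not move one way. Plau, urokinase, fell by 1.63 log2 units at 4 hr (SE 0.08, adjusted p = 4.8e-08, limma), rose again by 1.16 from 4 to 8 hr (adjusted p = 1.29e-05) and was at -0.47 against 0 hr at 8 hr (adjusted p = 0.000991). Its receptor gene Plaur rose by 0.91 (adjusted p = 1.3e-06, limma) and Plat, tissue plasminogen activator, by 2.06 (SE 0.51) at 4 hr, both named after their values were seen. Plat held 3 to 12 reads per library at 0 hr and 12 to 27 at 4 hr. It lay below 1 CPM in every library at 0 hr and passed the filter only through stimulated libraries, so its call is not independent of the filter. Serpinb2, which encodes an inhibitor of urokinase, rose by 3.41 (SE 0.21, adjusted p = 1.72e-07, limma) at 4 hr and was 1.51 higher than at 0 hr at 8 hr (SE 0.21, adjusted p = 0.000137). Lcn2, whose product binds MMP9, rose by 3.35 at 4 hr (SE 0.18, adjusted p = 6.53e-08, limma) and by 3.75 at 8 hr (SE 0.18, adjusted p = 3.67e-08). Timp3, the inhibitor of ADAM17, named after its values were seen, was not called at either time (log2 fold change -0.11, adjusted p = 0.826, limma, at 4 hr, then -0.36, adjusted p = 0.451, at 8 hr). It held 13 to 72 reads per library, with the fewest in each time's S513A library numbered 2.

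**Figure D5:**
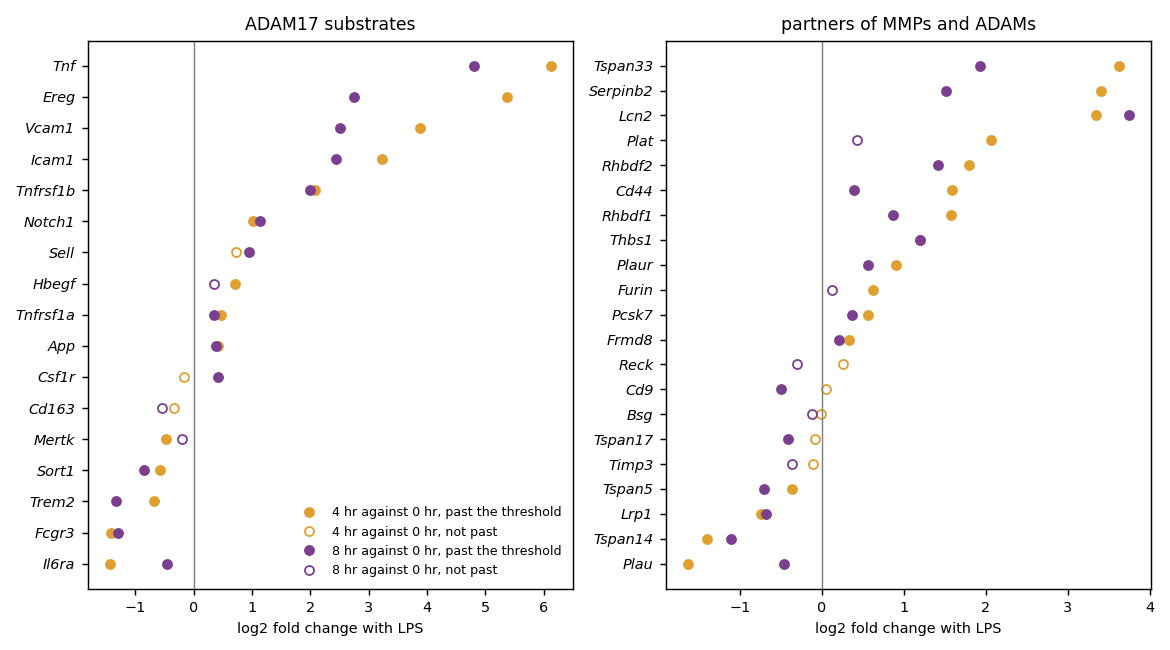
Log2 fold change at 4 hr and at 8 hr against 0 hr, mean of both genotypes, for genes encoding ADAM17 substrates (left) and partners of the metalloproteinases (right). Filled points passed an adjusted p of 0.05 in limma and open points did not. Tnf (6.12 at 4 hr) and Tspan33 (3.62 at 4 hr) are the topmost of each panel. Tspan33, Plat and Ereg passed the filter on low values only through stimulated libraries.

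Genes encoding proteins that ADAM17 is known to cut were examined beside Adam17 itself. Of 23 on the list 17 were tested. At 4 hr 9 rose and 5 fell, and at 8 hr 10 rose and 4 fell, beside 29.1% and 26.7% of all genes at 4 hr and 24.5% and 21.6% at 8 hr. The median log2 fold changes were 0.46 and 0.38, beside 0.02 and -0.0007 over all genes. Tnf rose from 383 to 582 reads per library at 0 hr to 23321 to 28249 at 4 hr, a log2 fold change of 6.12 (SE 0.10, adjusted p = 1.9e-11, limma), and was still 4.81 higher at 8 hr (SE 0.10, adjusted p = 1.34e-10). Vcam1, an adhesion receptor, rose by 3.88 at 4 hr (SE 0.26, adjusted p = 3.51e-07, limma). Ereg, an EGF receptor ligand, had no reads in any library at 0 hr, which allows up to 3 reads in each, 12 to 27 at 4 hr and 1 to 4 at 8 hr. Ereg passed the filter only through stimulated libraries, so its calls are not independent of the filter. Il6ra, the IL-6 receptor, fell by 1.43 (SE 0.10, adjusted p = 3.83e-07, limma) and Fcgr3 by 1.42 (SE 0.16, adjusted p = 2.13e-05) at 4 hr. Trem2, a lipid receptor of macrophages, fell by 1.33 at 8 hr (SE 0.15, adjusted p = 3.67e-05, limma). Sort1, a sorting receptor, fell by 0.86 at that time (SE 0.09, adjusted p = 2.38e-05, limma). Averaged over the 3 time points, 0 genes of these 4 further lists passed the threshold between genotypes in limma. At an unadjusted p under 0.05 there were 2 of the 5 other Mmp genes, 2 of the 13 ADAM and ADAMTS genes, 4 of the 21 partners and 1 of the 17 substrates, beside 798 of all 11885 genes.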

How the data were processed

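PolyA RNA of the 12 libraries was sequenced. Per the labels and the study's methods, the authors mapped reads to mm10 with HISAT2 without using strand and counted them per gene with featureCounts 1.6.3. The deposited values are normalized log2 CPM, each the log2 of the reads plus 0.5 over an effective library size; the program and the annotation are not given in the sources used here. Whole reads were recovered from the steps between low values, with a largest departure of 0.00156 read, and are printed as reads. Of the rows, 112 had no symbol. No deposited comparison columns were used.

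The log2 values were tested with limma 3.58.1 (R 4.3.3), a mean per group over all 12 libraries, a prior that follows the mean, a filter of 1 CPM in 2 libraries, and two-sided p values adjusted by Benjamini-Hochberg over each contrast; the threshold was 0.05. The test was checked on simulated data. Mmp3, Mmp25, Adamts4, Tspan33, Plat and Ereg lay below 1 CPM in every library at 0 hr. They passed the filter only through stimulated libraries. Their calls, and their places in the counts of genes that rose, are therefore not independent of the filter. Exon lengths came from the GENCODE annotation of GRCm38 (97.4% of listed genes) and upstream sequences from RefSeq. Reads on listed genes, 9525979 to 12439960 per library, set the precision; 3 reads correspond to -2.04 to -1.30 log2 CPM, and floors cover counting error only.

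The members and lists were chosen with earlier results of these data known. One gene of the partner list is not reported here and was left out of that list's counts. All members were named, and from each other list up to 3 genes with the largest rise and fall among those past the threshold whose 4 libraries did not overlap those at 0 hr. Alternatives were other filters, pseudocounts, scalings, weights, priors, lengths and blocks, and leaving libraries out.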

Additional observations from a re-analysis of the deposited data

How the results depend on the processing

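At 4 and 8 hr against 0 hr, over both genotypes, no member changed direction under the 23 alternatives. The change of Mmp12 at 4 hr was 0 under quantile normalization, in which its value follows its rank alone. The calls lost were Mmp8 at 4 hr (adjusted p = 0.0515 in limma without the WT library numbered 1 at 0 hr and 0.0662 without the 3 S513A libraries numbered 2, range over alternatives 0.000142 to 0.0662) and Mmp12 at 8 hr (0.522 under quantile normalization and 0.0509 without those 3 S513A libraries, range 0.00254 to 0.522). Leaving out those 3 libraries was chosen after seeing the data.

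From 4 to 8 hr the counts were less steady. Members higher over both genotypes numbered 1, and 2 under quantile normalization. Leaving out 1 library gave 1 to 2, with 2 without the WT library numbered 2 at 4 hr, and 4 to 6 members lower in place of 4, with 6 without that same library. In WT, members lower numbered 2, and 1 when only the groups compared were fitted or 1 to 2 when 1 library was left out (Timp2 lost without the one numbered 1 at 8 hr), and members higher numbered 0, or 0 to 1 when 1 library was left out (Mmp9 gained without the one numbered 2 at 4 hr). In S513A, members higher numbered 1, with 2 under quantile normalization, 0 with only the groups compared, 0 without the 3 S513A libraries numbered 2 and 0 to 2 when 1 library was left out (Mmp9 lost without S513A number 2 at 4 hr or number 1 at 8 hr, Mmp14 gained without either WT library at 4 hr). Members lower in S513A numbered 4, with 2 for only the groups compared, 1 without those 3 libraries, and 2 to 6 when 1 library was left out. Adam8, at 0.04 and not called, ranged from -0.033 to 0.12 when 1 library was left out, below 0 without the WT library numbered 1 at 4 hr and, at -0.016, without the S513A library numbered 1 at 8 hr. Between genotypes, members lower at 0 hr numbered 0, and 1 (Adam8) with only the groups compared. The interaction at 8 hr gave 0 members, and 0 to 1 (Timp1, without S513A number 2 at 8 hr) when 1 library was left out. The share of Mmp12 among the 6 Mmp genes at 0 hr was 83.4% with the longest transcript as length. Some of these alternatives use fewer libraries and others a different scaling or length. The cause of the shifts was not tested.

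Whether libraries of one genotype and number share cells is not given in the sources used here. The correlation of deviations ran from -0.75 to 0.76 over 15 pairs of groups, with 6 above 0.1. Pairs of different genotypes do not bear on shared cells. Within WT it was -0.21 (0 and 4 hr), 0.15 (0 and 8 hr) and -0.36 (4 and 8 hr). Within S513A it was -0.03, -0.12 and 0.76 for the same pairs. The summed mesothelial and fibroblast markers were low in all 3 S513A libraries numbered 2. Numbers were not taken to pair the libraries, and the main fit treated all 12 as independent, which these values cannot settle. With the replicate block, 5 members rose and 4 fell at 4 hr, and no count of members called differed in the 15 comparisons. With correlated libraries of one genotype and number, Mmp8 at 4 hr within S513A was also called (adjusted p = 0.0494, limma), giving 4 members lower in place of 3. Over all genes, the calls from 4 to 8 hr were 3043 and between 1489 and 3403 under the alternatives, in WT 1690 and 554 to 2847, in S513A 2175 and 206 to 3144. Those at 4 hr against 0 hr in S513A were 5137 and 2826 to 5687, at 8 hr 4744 and 2994 to 5425. At 8 hr in WT they were 4079 and 2489 to 5959. Between genotypes they were 4 and 0 to 693 at 0 hr, 2 and 0 to 2 at 4 hr, 4 and 0 to 6 at 8 hr, 8 and 3 to 12 on average, and 0 and 0 to 651 for the interaction at 8 hr. The depth limits Timp1, with at most 287 reads, more than any other member.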
